A study of Rattus norvegicus with 10 samples.

Results

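The D-type cyclins Ccnd1, Ccnd2 and Ccnd3 and the CDK inhibitor Cdkn1a were followed in RNA from sensory axons of adult and embryonic rats. They are represented by 7 of the 31042 probe sets tested, and by 4 of the 14217 genes that have a probe set with a single symbol in the platform annotation. Ccnd1 has 3 such probe sets, Cdkn1a has 2, and Ccnd2 and Ccnd3 have 1 each. Ccnd2 and Cdkn1a were chosen by these same array values, because their adult values lay below the embryonic ones while many cell cycle genes did not, so their stage difference is given as a description without a test. Ccnd1 and Ccnd3 entered as relatives of Ccnd2, and their stage difference was tested.

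The adult group comprised 5 arrays with RNA from the axons of adult rat dorsal root ganglia, and the embryonic group 5 arrays with RNA from the axons of ganglia taken at embryonic day 16. In both groups explants of the ganglia, which hold the cell bodies of sensory neurons, grew for 4 days in a chamber with compartments, and axons over 1 cm long were harvested on the far side. The labels name no strain, sex, treatment or genotype, give no age in the adult group beyond "adult", and do not say whether animals were pooled. The labels describe no step to remove other cells from the axons, and in bulk RNA fewer cells of a type and less RNA per cell cannot be told apart.

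D-type cyclins accumulate when growth factors reach a cell. They bind the kinases Cdk4 and Cdk6, which phosphorylate the retinoblastoma protein and release E2F factors that switch on genes of DNA replication. Cdkn1a encodes p21, which binds cyclin and kinase complexes and the replication clamp Pcna. Neurons have left the cell cycle, yet some of these proteins have roles in them that do not involve division.

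Several measures of the arrays moved with the stage or split the arrays within it. Spiked poly-A control transcripts, added before labelling, averaged 9.70 ± 1.54 on adult arrays and 2.21 ± 0.29 on embryonic arrays (log2 values, SD, n = 5 each; exact permutation p = 0.0079, adjusted p = 0.016 over 4 measures), so the stage cannot be told apart from this difference in labelling controls. The probe set of 5S ribosomal RNA was lower on adult arrays, as were Ccnd2 and Cdkn1a, at 4.66 ± 1.13 on adult and 8.69 ± 1.16 on embryonic arrays (SD, n = 5 each; exact permutation p = 0.0079, adjusted p = 0.016 over the same 4 measures). Its part in the values of Ccnd2 and Cdkn1a was not tested. The spread of all values on an array, as an SD, was wide on 4 arrays (1.95 or more) and narrow on 6 (1.70 or less). The wide ones were adult replicates 4 and 5 and embryonic replicates 1 and 5. No label accounts for this split. The stage difference of each member is therefore also given for the 4 wide arrays alone and for the 6 narrow arrays alone. For other genes and lists it is over all 10 arrays unless the split is printed. The level of background on an array, set by genes restricted to other tissues, was between 3.02 and 4.15. It was 3.11 and 3.02 on the wide adult arrays and 3.92, 4.09 and 4.15 on the narrow adult arrays. Genes above background numbered 9047 and 9555 on the wide adult arrays, against 6207, 5310 and 4895 on the narrow ones. On embryonic arrays they numbered 8551 and 7789 on wide and 8059, 5631 and 6054 on narrow arrays. The part of this in the split values of the members was not tested. Of 14 measured sensory neuron markers, 8 were above background on all adult arrays and 12 on all embryonic arrays. Of 17 macrophage and leucocyte markers, 13 were above it on all adult arrays and 2 on all embryonic arrays.

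Ccnd2, which mice need for the proliferation of granulosa cells and adult neural precursors, was lower in adult axons. On the adult arrays its probe set 1370810_at read 5.75, 5.55, 4.64, 3.57 and 4.19 on the log2 scale, against 7.72, 9.72, 7.23, 8.13 and 7.17 on the embryonic arrays. The stages did not overlap, and the highest adult value lay 1.42 below the lowest embryonic value. The means were 4.74 ± 0.92 in adult and 7.995 ± 1.04 in embryonic axons (SD, n = 5 each), a difference of -3.26 ± 0.57 (SE), or 9.55-fold lower in adult axons. A more negative difference was found for 106 of the 31042 probe sets. The share of probe sets that do not overlap in this direction was 1.42%. Ccnd2 was chosen for its fall in this contrast, so its rank and the lack of overlap follow in part from that choice. The signal was above background on all 10 arrays. With the background level set at the 99th percentile of the genes of other tissues, adult replicate 4 (3.57) lay below it (3.86). Adult replicate 3 (4.64) was then barely above it (4.63).

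The Ccnd2 difference was close in both kinds of array. Within the wide arrays it was -3.57 ± 0.36 (SE, 2 against 2), and within the narrow ones -3.05 ± 0.68 (3 against 3). The lowest of all values were those of adult replicates 4 and 5, both of wide spread, and the highest was embryonic replicate 2.

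Cdkn1a was also lower in adult axons by its brighter probe set, 1388674_at. It read 6.08, 6.99, 5.34, 9.22 and 7.02 on adult arrays, against 9.62, 9.72, 9.96, 10.16 and 9.63 on embryonic arrays. The embryonic values lay within 0.55 of each other, while the adult values spanned 3.88. Adult replicate 4 stood nearest to the embryonic arrays, 0.40 below the lowest of them, so here too the stages did not overlap. Means were 6.93 ± 1.46 in adult and 9.82 ± 0.24 in embryonic axons (SD, n = 5 each), a difference of -2.89 ± 0.60 (SE), or 7.41-fold lower in adult axons. A more negative difference was found for 172 probe sets, a rank that follows in part from the choice of Cdkn1a for its fall. The difference was -1.50 ± 0.84 (SE) within wide arrays and -3.81 ± 0.46 within narrow arrays.

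The other Cdkn1a probe set, 1387391_at, had weak signal. It read 2.88, 2.44, 4.18, 2.82 and 2.28 on adult arrays, against 6.02, 3.36, 2.73, 2.97 and 5.26 on embryonic arrays. Its signal was above background on 1 adult and 3 embryonic arrays. The high values were those of embryonic replicates 1 and 5, the embryonic arrays of wide spread, and the other 3 embryonic arrays lay among the adult ones. The difference was -1.15 ± 0.66 (SE) over all arrays, -3.09 ± 0.39 within wide arrays and 0.15 ± 0.50 within narrow arrays. This probe set was above background on 2 of the 6 narrow arrays and on neither of the wide adult arrays, so the narrow value does not show that a difference is absent, and its values are not set against those of 1388674_at.

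**Figure D1:**
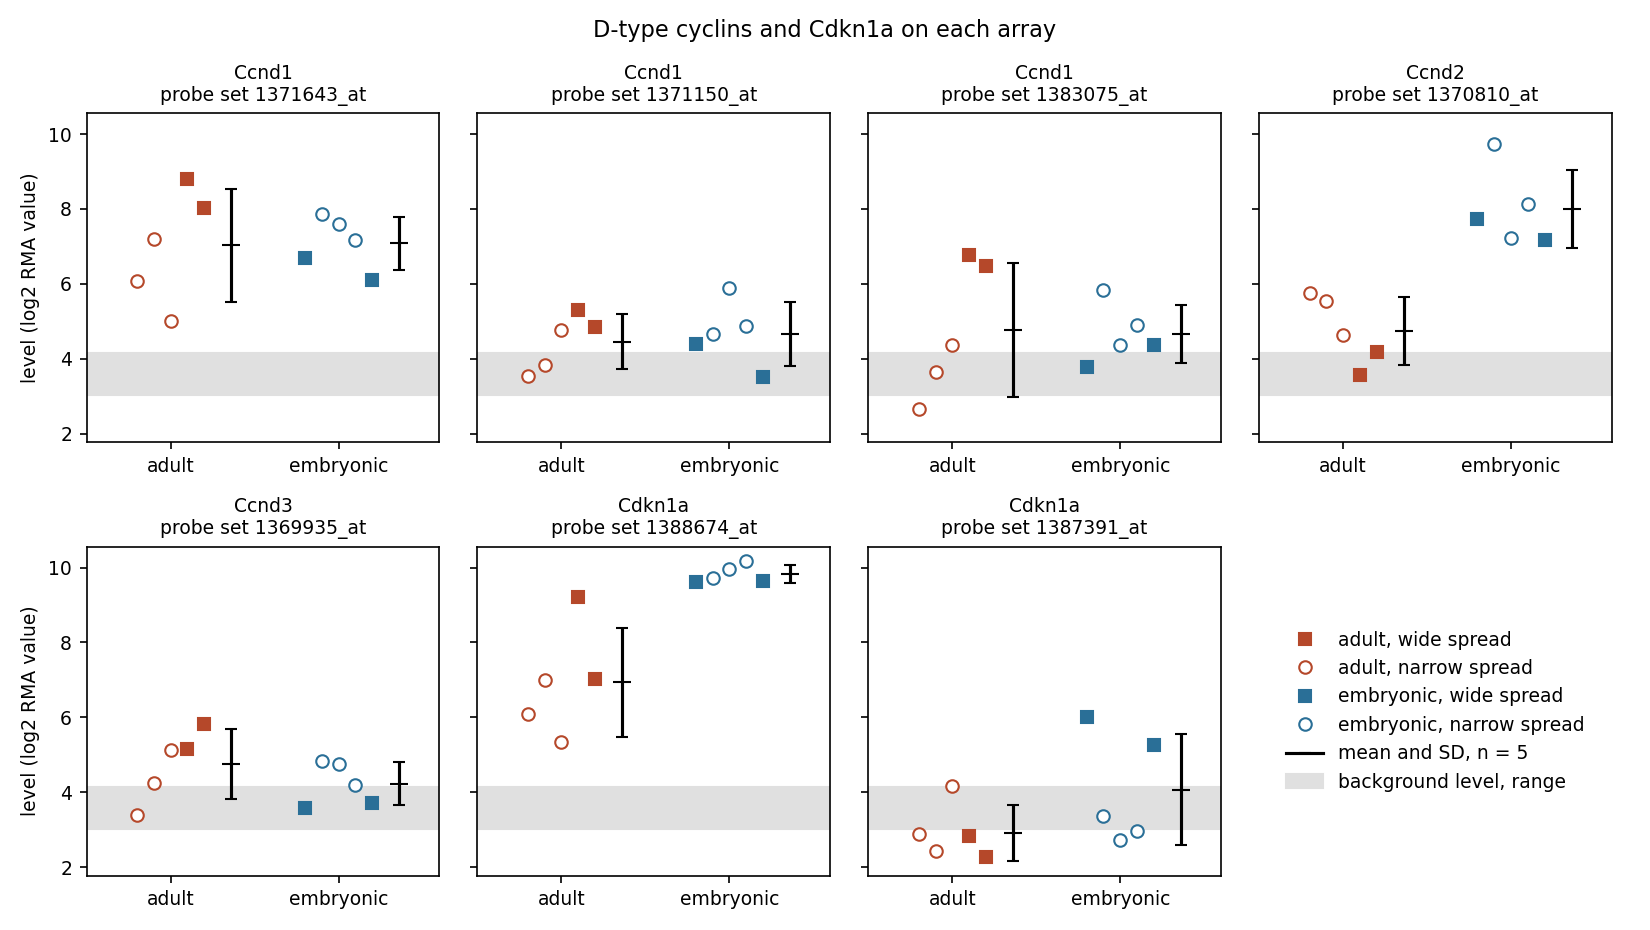
Log2 RMA value (vertical axis) of each of the 7 probe sets on each array, adult left and embryonic right, with filled squares for arrays of wide spread, open circles for arrays of narrow spread, and black bars for the mean and SD of 5 arrays. The grey band is the range of the background level, 3.02 to 4.15; the stages are apart for Ccnd2 1370810_at and Cdkn1a 1388674_at and overlap for the other 5 probe sets.

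Ccnd1, the D-type cyclin that growth factor signalling and beta-catenin raise in many cells, showed no stage difference beyond its error over all arrays. The brightest probe set, 1371643_at, read 6.08, 7.20, 5.01, 8.81 and 8.03 on adult arrays, against 6.68, 7.86, 7.60, 7.16 and 6.09 on embryonic arrays. The adult group held both the highest and the lowest of these values. Its means were 7.03 ± 1.51 in adult and 7.08 ± 0.71 in embryonic axons (SD, n = 5 each). The difference was -0.06 ± 0.67 (SE; limma adjusted p = 0.99), with a 95% interval of -1.54 to 1.43 that leaves room for a sizeable change either way. Its sign turned under quantile scaling (0.10) and cyclic loess (0.26).

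The weaker Ccnd1 probe sets overlapped between the stages in the same way. Probe set 1383075_at ranged from 2.66 to 6.76 on adult arrays (median 4.36), against 3.78 to 5.83 on embryonic arrays (median 4.37), with a difference of 0.13 ± 0.77 (SE; limma adjusted p = 0.99). Probe set 1371150_at ranged from 3.55 to 5.29 on adult arrays (median 4.77), against 3.51 to 5.88 on embryonic arrays (median 4.65), with a difference of -0.21 ± 0.47 (limma adjusted p = 0.96). They were above background on 8 and 7 of the 10 arrays.

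Ccnd3, a D-type cyclin found in many differentiated tissues, had weak signal. It read 3.39, 4.25, 5.13, 5.14 and 5.83 on adult arrays, against 3.58, 4.84, 4.76, 4.20 and 3.72 on embryonic arrays. It was above background on 9 of 10 arrays, but on 5 with the background level set at the 99th percentile of those genes. The stages overlapped, with means of 4.75 ± 0.94 in adult and 4.22 ± 0.58 in embryonic axons (SD, n = 5 each) and a difference of 0.53 ± 0.46 (SE; limma adjusted p = 0.83; 95% interval -0.49 to 1.55). By limma 0 of the 4 probe sets of Ccnd1 and Ccnd3 passed the threshold, and 0 had an unadjusted p under 0.05. Of all probe sets 0.831% passed. Stages that do not overlap were found for 0 of these 4, where 2.58% of all probe sets show them in either direction.

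The differences of Ccnd1 and Ccnd3 had opposite signs in the wide and the narrow arrays. Within the wide arrays the 3 Ccnd1 probe sets were higher in adult axons, by 2.03 ± 0.41, 2.55 ± 0.30 and 1.12 ± 0.41 (SE) for 1371643_at, 1383075_at and 1371150_at. Within the narrow arrays the differences were -1.45 ± 0.58, -1.48 ± 0.57 and -1.09 ± 0.49 in the same order. For Ccnd3 they were 1.83 ± 0.32 within wide and -0.34 ± 0.49 within narrow arrays, the second of which is within its SE. By limma 0 of these 4 probe sets passed within the wide arrays (lowest adjusted p = 0.10). Within the narrow arrays 0 passed (lowest limma adjusted p = 0.44). In the same order 3 and 2 had an unadjusted p under 0.05. The share of all probe sets at that level is not given, so these counts are not read as a result.

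The gap between the wide and narrow arrays in the stage difference was tested as an interaction, a test chosen after seeing the data. Among the probe sets of Ccnd1 and Ccnd3 it was largest for Ccnd1 1383075_at, at 4.03 ± 0.81 (SE; limma unadjusted p = 0.00088, adjusted p = 0.12). That probe set had no overlap of the stages within either kind of array, in opposite directions, as had 2.89% of all probe sets. Within the narrow arrays the stages all but met, at 4.360 on adult replicate 3 and 4.365 on embryonic replicate 3. The narrow adult replicates 1 and 2 were below background. For Ccnd1 1371643_at the gap was 3.48 ± 0.85 (limma adjusted p = 0.19). Of the 4 probe sets of Ccnd1 and Ccnd3, 3 of them of Ccnd1, 0 passed the threshold, where 0.0805% of all probe sets passed. By limma 4 had an unadjusted p under 0.05, but the share of all probe sets at that level is not given. That count is therefore not read as a result. For Ccnd2 the gap was -0.52, given as a description. For Cdkn1a it was 2.31 by 1388674_at and -3.24 by 1387391_at, whose signal was weak, also as a description.

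**Figure D2:**
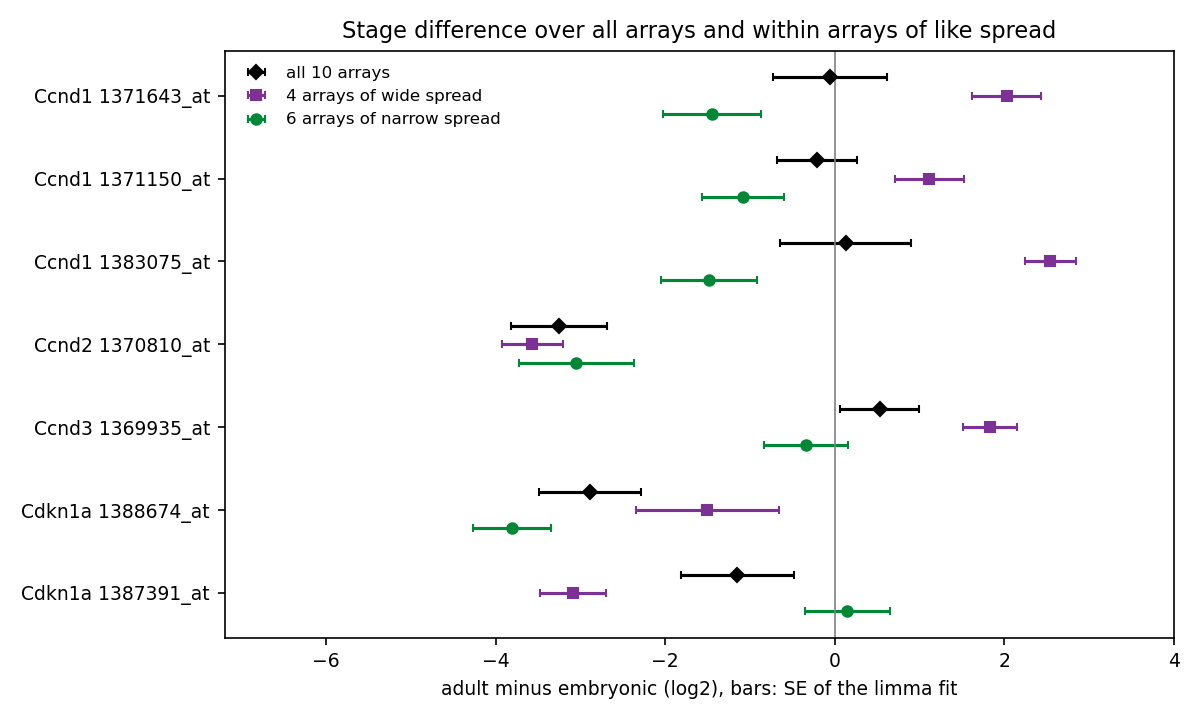
Adult minus embryonic difference (horizontal axis, log2) of each probe set over all 10 arrays, for the 4 wide arrays and for the 6 narrow arrays, with bars for the SE of the limma fit. Ccnd2 lies at -3.57 to -3.05 in all 3 fits, while the Ccnd1 probe sets lie above 0 within wide and below 0 within narrow arrays.

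The array pattern of each member was set beside those of the 7844 genes above background on at least 5 arrays. Likeness was the root mean square difference over the 10 arrays after each gene was centred on its own mean, and it is a description only. Nearest to Ccnd1 was Mcm2, a subunit of the replicative helicase, at 0.44 log2 units, where the median over genes was 1.35. Next were Xpo4 (0.50), a nuclear export receptor, Hmga1 (0.53), a chromatin protein of growing cells, and Lrrc45 (0.57). The other 2 probe sets of Xpo4 differed by 0.02 and 0.75, against -0.48 for the one compared. Mcm2 read 4.70, 6.37, 3.19, 8.07 and 7.04 on adult arrays, against 5.01, 5.84, 5.91, 5.93 and 5.25 on embryonic arrays. As with Ccnd1, adult replicate 3 was the lowest and adult replicate 4 the highest of all arrays.

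Nearest to Ccnd2 were the embryonic globin Hbe1 (0.66) and Igf2 (0.73), the imprinted growth factor of fetal tissues, against a median of 2.17 over genes. Tmcc2 (0.75) and Ube2ql1 (0.84) followed. Hbe1 read 1.73 to 3.94 on adult arrays, against 5.45 to 6.75 on embryonic arrays. It was above background on 0 adult and 5 embryonic arrays, so it met the limit of 5 arrays through its embryonic values alone. Its likeness to Ccnd2 rests in part on adult values at background. Igf2 read 3.00 to 5.02 on adult arrays, against 6.45 to 9.41 on embryonic arrays. That is a difference of -3.67, while the other 3 probe sets of Igf2 differed by -0.27 to 0.30, and the other probe set of Ube2ql1 by -0.56 against -2.41 for the one compared. Of 7 measured blood cell markers, limma called 1 lower in adult axons and 0 higher. The called marker was Hbe1, the gene already picked for its likeness to Ccnd2, so this call is not a separate finding. All 7 markers, Hbe1 among them, had lower means in adult axons. The summed linear level of the 7 was 42 to 247 on adult and 313 to 1539 on embryonic arrays. Of these 7 genes, 1 was above background on all adult and 3 on all embryonic arrays, while 5 were above it on no adult and 3 on no embryonic array. Their part in the Ccnd2 difference was not tested.

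Nearest to Cdkn1a were Cox6a1 (0.57), a subunit of cytochrome oxidase, Zfp219 (0.66), Kif13a (0.68), a vesicle motor, and Nme1 (0.73), a nucleoside diphosphate kinase, against a median of 1.84 over genes. Cox6a1 read 6.93 to 9.78 on adult arrays, against 10.44 to 10.94 on embryonic arrays. Each of these 4 genes, like Cdkn1a, had its lowest values on adult replicates 1 and 3. The other 2 probe sets of Kif13a differed by -0.06 and 0.02, against -1.85 for the one compared. Nearest to Ccnd3 were Atp6v1g1 (0.38), Ccdc12 (0.42), Gng5 (0.42) and Exosc8 (0.45), where the median over genes was 1.25.

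**Figure D3:**
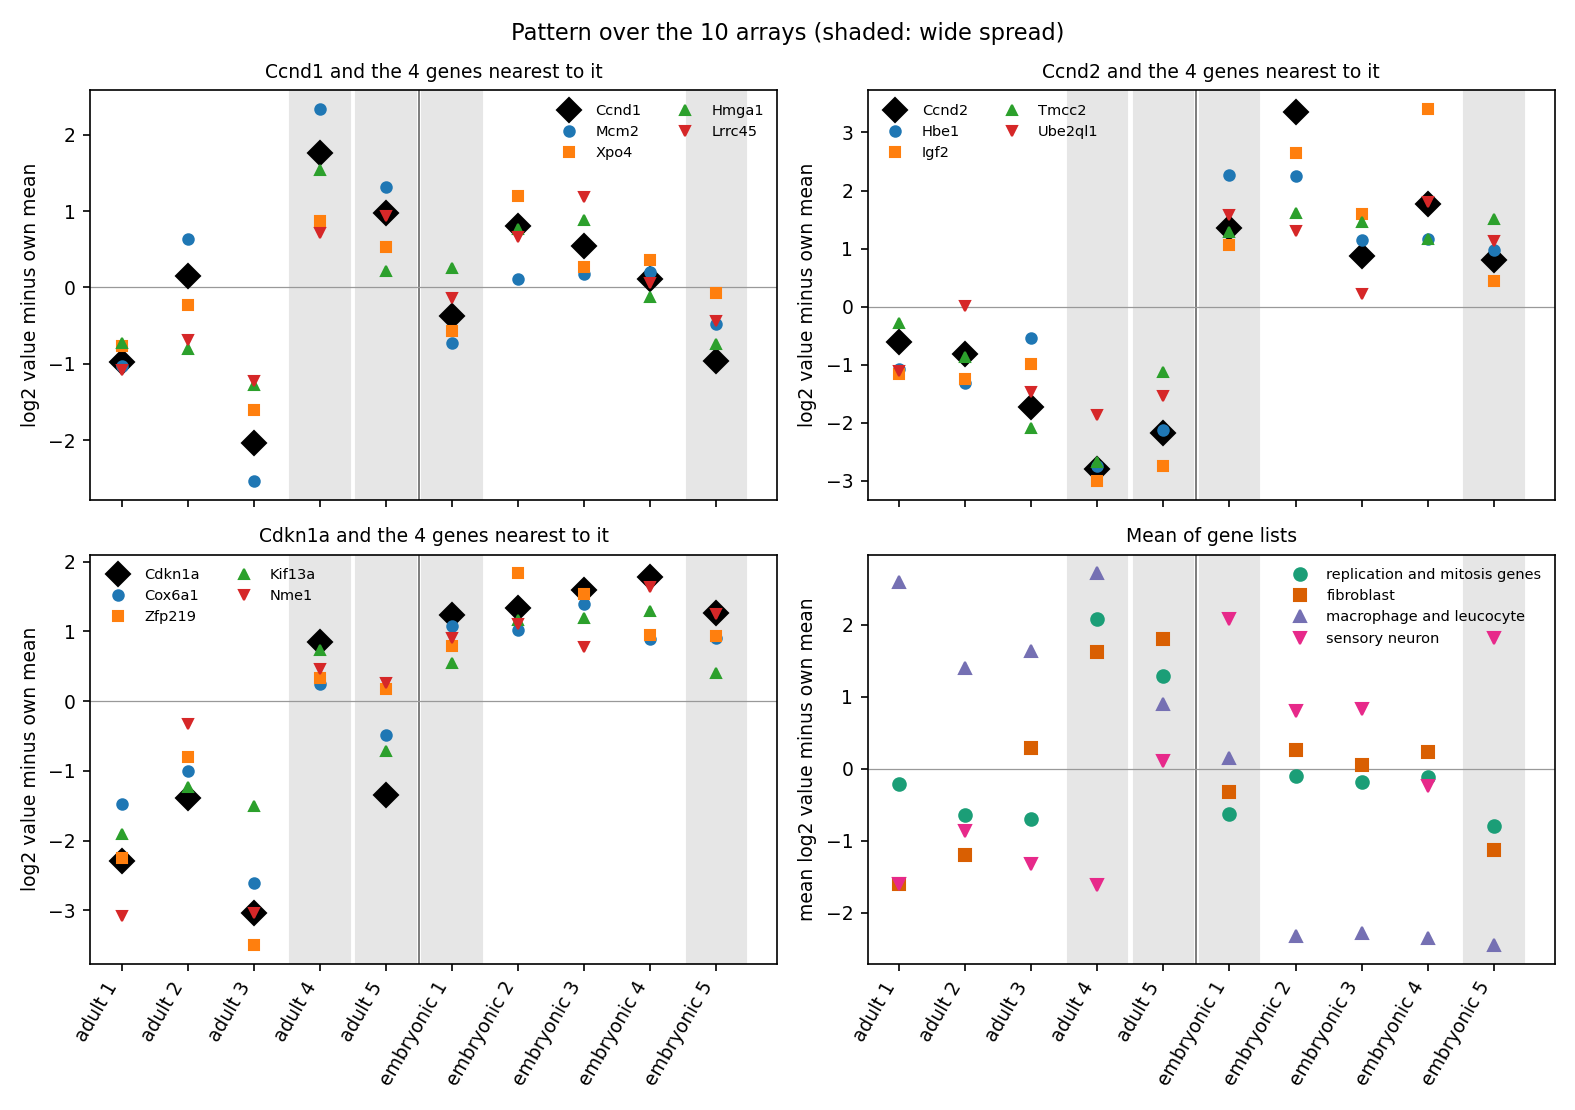
Log2 value minus the gene's own mean (vertical axis) on each of the 10 arrays, adult left of embryonic and arrays of wide spread shaded, for Ccnd1, Ccnd2 and Cdkn1a with the 4 genes nearest to each, and for the mean of 4 gene lists. Ccnd1 and the replication and mitosis genes are highest on adult replicate 4, whereas Ccnd2 is lowest there.

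Genes around the D-type cyclins were read from lists of 161 genes, 147 of them measured. Of these, 0 were called higher and 2 were called lower in adult axons by limma, 1.36% of the measured genes. Of all genes 1.26% were called, 0.647% lower and 0.612% higher in adult axons. By limma 1890 of the 14217 genes had an unadjusted p under 0.05. Among the partners, the kinase Cdk4 was at 6.48 ± 2.00 in adult and 7.16 ± 0.59 in embryonic axons (SD, n = 5; limma adjusted p = 0.91). Its difference was 0.78 within wide and -1.65 within narrow arrays. Cdk6 was above background on 0 arrays. Of the pocket proteins, Rb1 had a difference of 0.18 (limma adjusted p = 0.98) and Rbl1 one of 2.32 (limma adjusted p = 0.098). Rbl2, which acts in resting cells, was at 5.89 ± 0.82 in adult and 3.84 ± 0.52 in embryonic axons without overlap (limma adjusted p = 0.052). On other lists Gmnn (2.10) and Cdk16 (-1.63) had the same limma adjusted p, also without overlap. The other probe set of Gmnn differed by 0.04. Genes whose stages do not overlap made up 3.54% of all genes, 1.86% lower and 1.67% higher in adult axons. E2F and DP factors had 0 of 9 called, and 0 with an unadjusted p under 0.05.

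Replication and mitosis genes, the downstream end of the pathway, had, like Ccnd1, a positive difference within the wide arrays and a negative one within the narrow arrays, by their median. Of 27 measured, 0 were called by limma and 2 had an unadjusted p under 0.05. Their median difference was 0.75, set beside -0.00086 over all genes. It was 2.43 within wide arrays, where 27 of 27 were higher in adult axons, and -0.38 within narrow arrays, where 6 of 27 were. Over all 14217 genes the medians were 0.02 and -0.05, with 7336 and 6631 genes higher in adult axons. The proliferation marker Mki67 was at 5.97 ± 2.39 in adult and 3.60 ± 0.33 in embryonic axons (limma adjusted p = 0.41). Mki67 was among the 6, with a difference of 3.74 within wide and 1.46 within narrow arrays. The clamp protein Pcna was at 7.98 ± 2.33 in adult and 7.39 ± 1.23 in embryonic axons (limma adjusted p = 0.95).

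The E, A and B cyclins with their kinases had 0 of 10 called by limma, 1 with an unadjusted p under 0.05, and a median of 1.19 within wide and -0.12 within narrow arrays. The mitotic cyclin Ccnb1 differed by 1.85 ± 0.56 (SE; limma adjusted p = 0.22) and its kinase Cdk1 by 1.99 ± 1.01 (limma adjusted p = 0.58). Within wide and narrow arrays the differences were 2.99 and 1.09 for Ccnb1 and 4.06 and 0.61 for Cdk1. Ccne1 and Ccna2, the cyclins of entry into and passage through S phase, differed by -0.05 and 0.83 (limma adjusted p = 0.99 and 0.83).

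The mean of the fibroblast markers, like Ccnd1 and the replication genes, was highest on adult replicates 4 and 5, but the markers were divided. Of 9, the 4 genes Dcn, Lum, Col3a1 and Pdgfra had higher means in adult axons, and the 5 genes Col1a1, Col1a2, Postn, Pdgfrb and Fbln1 had lower means there and their highest value on an embryonic array. By limma 0 of the 9 were called, and 3 had an unadjusted p under 0.05. The mean log2 level of the 9 measured genes was 6.34 and 6.52 on adult replicates 4 and 5, but 3.12, 3.52 and 5.01 on adult replicates 1, 2 and 3. On embryonic arrays it was 3.60 to 4.98. The summed linear level ranged from 94 to 3258 on adult and from 132 to 925 on embryonic arrays. Background was exceeded on every adult array by 0 of the 9 genes and on every embryonic array by 2, and Fbln1 was above it on none. The part of these cells in the Ccnd1 values was not tested. Macrophage and leucocyte markers had a summed level of 6290 to 14333 on adult and 216 to 1934 on embryonic arrays, and limma called 9 of the 17 higher in adult axons. None of the 17 was below background on all adult arrays, and 2 were on all embryonic arrays. For the sensory neuron list the sums were 1500 to 7387 on adult and 4764 to 21540 on embryonic arrays, and limma called 5 of the 14 genes lower in adult axons. Each of the 14 exceeded background on some array of both stages. Schwann cell markers summed to 610 to 4224 on adult and 381 to 586 on embryonic arrays, with 0 of 10 called by limma and 2 at an unadjusted p under 0.05. These markers were divided too. The means of 7 were higher in adult axons, and those of 3, Sox10, Foxd3 and Gfra3, were lower. Mag and Foxd3 were above background on no array. The part of macrophages, neurons and Schwann cells in the values of Ccnd2, Cdkn1a, Ccnd1 and Ccnd3 was not tested.

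Other CDK inhibitors had 0 of 7 called by limma and 1 with an unadjusted p under 0.05. Cdkn1c, an imprinted relative of Cdkn1a, was at 6.76 ± 1.96 in adult and 9.68 ± 0.86 in embryonic axons (difference -2.92 ± 0.85, SE; limma adjusted p = 0.18). It was -2.26 within wide and -3.37 within narrow arrays. Cdkn1b, the third member of that family, was at 7.01 ± 0.94 in adult and 6.82 ± 1.29 in embryonic axons (limma adjusted p = 0.98), although its other probe set differed by -2.61. Cdkn2c, an inhibitor of Cdk4 and Cdk6, differed by 0.30 (limma adjusted p = 0.96).

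Sesn2, a stress-induced regulator of mTORC1 signalling, was 1 of the 2 called genes. It was at 3.88 ± 0.42 in adult and 6.25 ± 0.55 in embryonic axons (SD, n = 5; difference -2.37 ± 0.32, SE; limma adjusted p = 0.0074). The stages did not overlap, and the difference was -2.34 within wide and -2.39 within narrow arrays. Its other probe set differed by 0.24.

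Of 20 cyclins and CDKs with mostly non-mitotic roles, Ccni was the only gene called by limma. It was at 9.09 ± 0.57 in adult and 11.10 ± 0.59 in embryonic axons (SD, n = 5; difference -2.01 ± 0.37, SE; limma adjusted p = 0.033), with -2.10 within wide and -1.95 within narrow arrays. Its other probe set differed by -1.92. The call was lost in 8 of 10 omissions of an array, with adjusted p up to 0.091. Cdk5, the kinase of postmitotic neurons, and its activator Cdk5r1 differed by -0.62 and -0.30 (limma adjusted p = 0.83 and 0.89), and Cdk5r1 exceeded background on 0 adult arrays and 1 embryonic array.

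The lists for turnover of D cyclins and p21 (12 genes measured), the CDK-activating kinase (5) and upstream transcription factors (31) had 0 called genes by limma. At an unadjusted p under 0.05 there were 0, 0 and 3. Their medians were -0.17, 0.33 and 0.16.

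**Figure D4:**
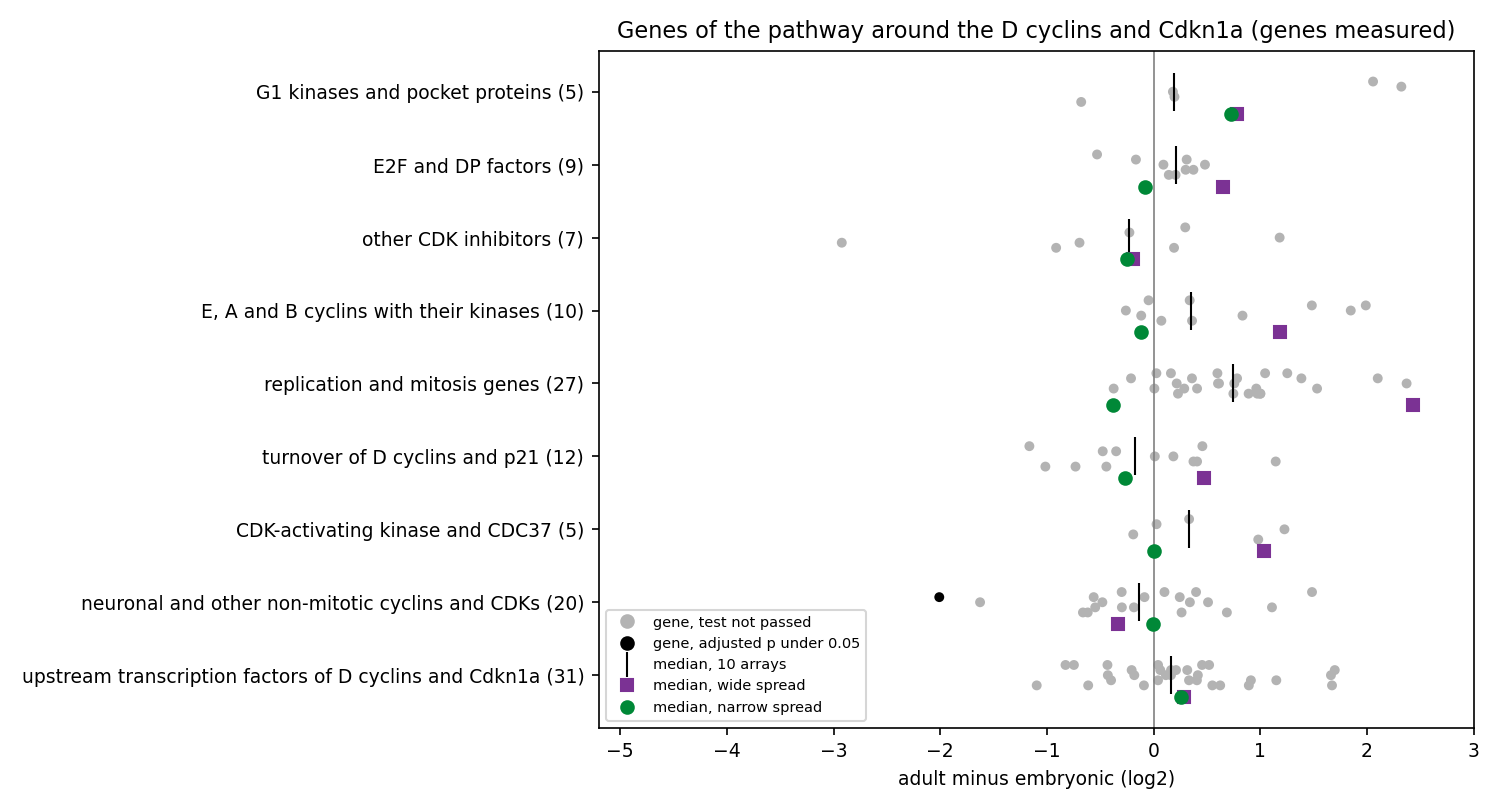
Adult minus embryonic difference (horizontal axis, log2) of each of the measured genes on 9 lists, black where the limma adjusted p was under 0.05 (Ccni) and grey otherwise, with the list medians over all arrays, within wide and within narrow arrays. The replication and mitosis list has medians of 2.43 within wide and -0.38 within narrow arrays.

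The genes next to each member on its chromosome were examined by position alone, up to 2 measured protein-coding genes on either side in the RefSeq annotation. Of these 16 neighbours 0 were called by limma, 2 had an unadjusted p under 0.05, and 4 were above background on no array. Their differences ran from -1.67 to 0.29 with a median of -0.05. The neighbour with the most negative value was Prmt8, a brain arginine methyltransferase near Ccnd2, at 2.67 ± 0.35 in adult and 4.34 ± 1.24 in embryonic axons (SD, n = 5; limma adjusted p = 0.24). It was above background on 0 adult and 3 embryonic arrays. Near Cdkn1a, Cpne5 was at 4.77 ± 0.50 in adult and 5.86 ± 0.42 in embryonic axons (limma adjusted p = 0.18).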

How the data were processed

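The authors deposited log2 values from Affymetrix rat arrays, summarised by RMA per the submitters' processing notes. For RMA, its version and options, and the arrays it was run on jointly, are not stated in the labels. Base 2 was inferred from the range. Array medians were 2.86 to 3.14, so genes were not centred. RMA compresses differences of weak probe sets. Depth has no counterpart on arrays, and the number of arrays limits the precision.

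Of 31099 probe sets, 57 controls were left out. The platform annotation gives 20826 a single symbol, 436 several and 9780 none. A gene stands as its probe set with the highest mean. The stage difference, adult minus embryonic, came from limma 3.58.1 under R 4.3.3 (lmFit and eBayes, two-sided) run on all probe sets, with Benjamini-Hochberg adjustment over 31042 and a threshold of 0.05. Each array's background level was taken from 86 probe sets of 73 genes of other tissues, at their 95th percentile. No filter or pseudocount was used. A simulation of 31042 probe sets changed 50 of them at each of 4 sizes. Changes of 1, 2, 4 and 6 log2 units were recovered in 4%, 46%, 94% and 98% of cases. There were 11 false calls. A count of 0 called genes or probe sets therefore does not show that changes of 1 or 2 log2 units are absent.

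Arrays were split at the middle of the range of their SDs. Alternatives were other scalings, a filter, variance models, array weights, blocks, other probe set summaries and leaving out each array, and the interaction of stage with spread was added after seeing the data. Samples with the same replicate number did not deviate together (correlations -0.12 to 0.28), so they were not treated as pairs. P-values measure the spread between samples that the labels call biological replicates. The members, lists, rules and tests were chosen with earlier results of these data known. Genes named were all members, called genes on the lists, others fixed by name, and the 4 nearest patterns per member. Rbl1, Rbl2, Gmnn, Cdk16, the fibroblast markers, Prmt8 and Cpne5 were named after their values were seen. One of the gene lists and some of the genes fixed by name are not reported here.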

Additional observations from a re-analysis of the deposited data

Results flagged for a closer look

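Ccnd1 1383075_at differed between the kinds of array. Within the arrays of wide spread every adult value lay above every embryonic value. Within those of narrow spread every adult value lay below every embryonic value, but only just. There adult replicate 3 read 4.360 and embryonic replicate 3 read 4.365. The narrow adult replicates 1 and 2 (2.66 and 3.64) were below their background levels (3.92 and 4.09). The wide minus narrow gap in the stage difference was 4.03 on the log2 scale (limma adjusted p = 0.12 in the interaction test), and 2.89% of all probe sets showed such opposite separation. Of 14 groups of 5 arrays, 0 held a value set far apart from the rest by Dixon's criterion.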

How the results depend on the processing

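Ccnd2 stayed lower in adult axons under all alternatives run, at -3.51 to -2.82 with each array left out in turn, and so did Cdkn1a 1388674_at, at -3.46 to -2.49, with -1.50 within the arrays of wide spread. The small Ccnd1 differences changed sign. For 1371643_at the value was 0.10 under quantile scaling, 0.26 under cyclic loess, 2.03 within wide arrays and -0.50 to 0.45 with each array left out. For 1371150_at it was 1.12 within wide arrays and -0.49 to 0.10 with each array left out. For 1383075_at it was -0.12 under quantile scaling, -0.11 with array weights, -1.48 within narrow arrays and -0.37 to 0.66 with each array left out. Ccnd3 was at -0.34 within narrow arrays, and it was above background on 5 arrays at the 99th percentile. Over all probe sets limma called 258 (179 genes). It called 401 (276 genes) with spread as a block, 431 (318 genes) with a filter on weak probe sets, 0 (0 genes) in wide arrays alone, and 150 to 339 (101 to 248 genes) with each array left out. The lowest counts of genes were 101 without adult replicate 4, 106 without embryonic replicate 3, 107 without embryonic replicate 5, and 117 without adult replicate 1 or embryonic replicate 2. On the pathway lists 2 genes were called. The count was 1 under quantile scaling, cyclic loess, median scaling and a variance trend, 5 with array weights, 0 within wide or narrow arrays alone, and 1 to 4 with each array left out. With the replicate number as a block 191 probe sets (135 genes) and 1 gene of the lists were called, Ccni being lost. Sesn2 kept its call with each array left out and lost it within wide or narrow arrays alone. The cause of these shifts was not tested. Weak signal limits Ccnd3, 2 Ccnd1 probe sets and Cdkn1a 1387391_at.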
